A study of Homo sapiens with 3 samples.

Results

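Chromosome 9 carried 571 of the 10562 circular RNAs (circRNAs) listed for 3 human cell lines, chosen as every listed circRNA whose position on the hg19 build lies on that chromosome. Of these, 129 lay on the short arm (9p) and 442 on the long arm (9q), with the arms divided at 49 Mb, and all but 14 were assigned by the table to 203 host genes, the genes they are spliced from. The lines were J82 and T24, both classed as bladder cancer lines, and SV-HUC-1, an immortalized line of the urothelium, the lining of the urinary tract. Each line gave 1 library, made from total RNA after removal of ribosomal RNA and digestion of linear RNA with the exonuclease RNase R. A difference between 2 libraries therefore has no replicate check, stands for those libraries and not for bladder cancer, and cannot tell apart fewer cells with a circRNA from less of it per cell.

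A circRNA forms when the splicing machinery joins the end of an exon back to the start of the same or an earlier exon, so that the RNA closes into a ring without free ends. It competes with linear splicing of the same transcript, and its level depends on the transcription of the host gene, on the exons chosen for back-splicing and on the stability of the ring. Chromosome 9 is often lost, wholly or in segments, in bladder cancer, and its best known candidate tumour suppressors are CDKN2A and CDKN2B on the short arm and PTCH1 and TSC1 on the long arm. DNA copy number of the 3 lines was not analysed here.

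The promoters of the host genes at the ends of the range are shown because they are where transcription of these hosts starts. RABEPK was the lowest host gene in J82 against SV-HUC-1, COL5A1 the lowest in T24 against SV-HUC-1, and GLIS3 the highest in both comparisons. The windows come from RefSeq on the GRCh38.p14 build, a later build than the hg19 of the circRNA table, and run 5′ to 3′ from 250 bases before to 50 bases after the transcription start. That of GLIS3 lies at chr9:4298447-4298746 on the minus strand and is the first of 2 listed starts, that of COL5A1 at chr9:134641553-134641852 on the plus strand and also the first of 2, and that of RABEPK at chr9:125200292-125200591 on the plus strand with 1 listed start. Capitals mark GGGCGG on either strand, the core of the GC box bound by Sp1-like factors.
GLIS3: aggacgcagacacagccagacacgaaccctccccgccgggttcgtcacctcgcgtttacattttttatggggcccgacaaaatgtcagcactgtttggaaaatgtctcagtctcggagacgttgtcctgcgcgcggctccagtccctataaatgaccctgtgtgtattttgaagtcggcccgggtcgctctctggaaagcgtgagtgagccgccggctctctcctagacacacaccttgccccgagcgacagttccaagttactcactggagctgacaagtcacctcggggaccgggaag
COL5A1: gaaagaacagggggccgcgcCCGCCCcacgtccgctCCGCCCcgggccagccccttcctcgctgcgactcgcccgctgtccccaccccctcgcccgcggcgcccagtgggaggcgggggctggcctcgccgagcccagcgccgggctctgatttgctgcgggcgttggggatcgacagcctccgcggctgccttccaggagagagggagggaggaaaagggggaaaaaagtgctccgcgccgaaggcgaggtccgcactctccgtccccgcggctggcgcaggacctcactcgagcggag
RABEPK: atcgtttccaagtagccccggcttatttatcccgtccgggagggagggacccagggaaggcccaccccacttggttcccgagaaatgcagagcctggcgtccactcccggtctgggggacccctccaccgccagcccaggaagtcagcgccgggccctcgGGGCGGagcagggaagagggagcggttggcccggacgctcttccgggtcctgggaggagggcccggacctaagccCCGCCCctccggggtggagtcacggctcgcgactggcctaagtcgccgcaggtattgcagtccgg
The letters GGGCGG or CCGCCC occurred 2 times in the COL5A1 window, 2 times in that of RABEPK and 0 times in that of GLIS3. The letters TATAAA or TTTATA, the core of a TATA box, occurred 1 time in the GLIS3 window and 0 times in the other two. GC content was 57.3% for GLIS3, 74% for COL5A1 and 69.3% for RABEPK, with 23, 36 and 25 CpG dinucleotides in that order of genes. RefSeq listed promoters for 165 of the 203 host genes, 278 windows in all, and 68.7% of those held the GC box letters, against 45.0% of all 35116 promoter windows. TATAAA on either strand occurred in 6.83% of the chromosome 9 windows and in 11.5% of all windows. All windows include genes without a listed circRNA. Host genes of other chromosomes were not counted on their own, so neither difference can be ascribed to chromosome 9. A match to these letters is a description of the sequence and no evidence of binding.

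The listed circRNAs had 126041 reads in J82 and 108574 in T24, against 128055 in SV-HUC-1, and 1 read was worth 0.0211, 0.0234 and 0.0201 CPM (reads scaled by the library total) in that order. Every listed circRNA reached at least 5 reads in at least 1 library. Of the 571 on chromosome 9, 503 were detected in J82 and 448 in T24, against 519 in SV-HUC-1. The number on 9p was 108 in J82 and 110 in T24, against 106 in SV-HUC-1, whereas that on 9q was 395 and 338, against 413. Among genes that mark epithelial and urothelial cells, 8 of 18 had a listed circRNA, with 359 summed reads in J82 and 28 in T24, against 578 in SV-HUC-1. CDH3 and ST14 were at 0 in J82, and 6 of the 8 were at 0 in T24, including GRHL2 (182 reads in J82, 371 in SV-HUC-1), EPCAM and CDH1. Other members of that list were not lower in J82, with 17 reads of KRT7 in J82 and 3 in T24, against 7 in SV-HUC-1, 101 of PPARG in J82 and 25 in T24, against 65, and 43 of ESRP1 in J82 and 0 in T24, against 44. Uroplakins, GATA3 and keratins other than KRT7 had no listed circRNA, so urothelial identity could not be checked on them. Mesenchymal markers with a listed circRNA (4 of 10) had 64 reads in J82 and 21 in T24, against 271 in SV-HUC-1, of which 51, 0 and 190 came from COL5A1, itself on chromosome 9, and 1 of the 4 was at 0 in J82 and 1 in T24. ZEB1 ran the other way, with 7 reads in J82 and 16 in T24, against 2 in SV-HUC-1. Of 7 blood and endothelial markers, FLI1 alone had a listed circRNA, with 11 reads in J82 and 44 in T24, against 33 in SV-HUC-1. The part of these marker differences in the folds along the chromosome was not tested.

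Of the 6 host genes with most reads, 4 had similar levels in the 3 lines. CAMSAP1, which encodes a microtubule minus-end binding protein, gave 1041 reads (22.01 CPM) in J82 and 957 (22.4 CPM) in T24, against 975 (19.6 CPM) in SV-HUC-1. Its leading circRNA held 83.2%, 82.9% and 82.4% of those reads in the same order, so the choice of circle within CAMSAP1 was nearly the same in each line. FAM120A, an RNA-binding scaffold protein, stood at 10.3 CPM in J82 and 11.2 CPM in T24, against 12.4 CPM in SV-HUC-1. UBQLN1, a ubiquitin-like shuttle of protein degradation, was at 6.13 CPM in J82 and 6.02 CPM in T24, against 6.58 CPM in SV-HUC-1. EHMT1, a histone methyltransferase, was at 4.08, 5.10 and 4.76 CPM in that order. These hosts lay within 2-fold of SV-HUC-1 in both cancer lines.

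LPAR1 and UBAP2 complete these 6, and here the lines differed more. LPAR1, a receptor for lysophosphatidic acid, gave 598 reads (12.6 CPM) in J82 and 1068 (24.997 CPM) in T24, against 226 (4.54 CPM) in SV-HUC-1. The ratio to SV-HUC-1 was 2.79 in J82 (95% counting interval 2.39 to 3.26) and 5.51 in T24 (4.77 to 6.39). UBAP2, a ubiquitin-associated protein, had 481 reads in J82 and 607 in T24, against 692 in SV-HUC-1, and was 1.37-fold lower in J82 (1.21 to 1.54) with a ratio of 1.02 in T24 (0.916 to 1.14). Intervals here and below are exact, cover counting error only, and take no account of amplification, since reads carry no molecular identifiers.

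Of the 6 circRNAs with most reads, 4 came from the hosts above. UBAP2's hsa_circ_0001847 (chromosome 9, 33953282 to 33963789, minus strand) had 5.88 CPM in J82 and 9.43 CPM in T24, against 7.91 CPM in SV-HUC-1. FAM120A's hsa_circ_0008193 (96233422 to 96238620, plus strand) had 3.21 CPM in J82 and 3.77 CPM in T24, against 3.63 CPM in SV-HUC-1, a difference inside the counting intervals. KIAA0368, a proteasome adaptor, gave hsa_circ_0001882 (114148656 to 114154104, minus strand) at 3.19 CPM in J82 and 4.70 CPM in T24, against 2.73 CPM in SV-HUC-1. GRHPR, an enzyme of glyoxylate metabolism, gave hsa_circ_0001861 (37424841 to 37426651, plus strand) at 1.99 CPM in J82 and 4.52 CPM in T24, against 3.93 CPM in SV-HUC-1, so that J82 stood apart from the other two lines. Whether the spans hold coding exons or UTRs was not analysed here.

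**Figure D1:**
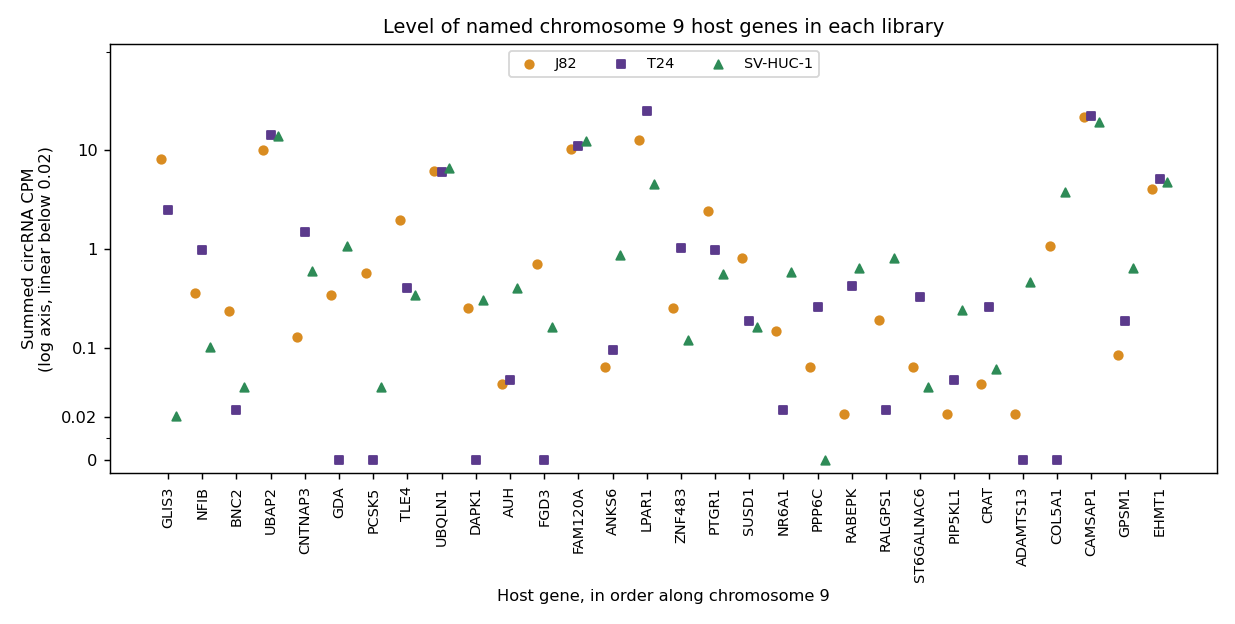
Summed circRNA CPM of each named chromosome 9 host gene (log axis, linear below 0.02 CPM) in the 1 library of J82, T24 and SV-HUC-1, with genes in order along the chromosome. CAMSAP1, UBQLN1, FAM120A and EHMT1 have nearly coinciding points, while GLIS3 spreads from 8.25 CPM in J82 to 0.0201 CPM in SV-HUC-1 and COL5A1 is at 0 in T24.

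Chromosome 9 took a similar share of circRNA reads in each line, and its arms moved differently. The whole chromosome held 6.32% of circRNA reads in J82 (6.19% to 6.46%) and 6.93% in T24 (6.78% to 7.08%), against 6.64% in SV-HUC-1 (6.51% to 6.78%). The long arm held 4.90% in J82 (4.78% to 5.02%) and 5.27% in T24 (5.14% to 5.41%), against 5.32% in SV-HUC-1 (5.20% to 5.45%), so the interval of J82 lay below that of SV-HUC-1 while that of T24 overlapped it. The short arm held 1.43% in J82 (1.36% to 1.49%) and 1.66% in T24 (1.58% to 1.74%), against 1.32% in SV-HUC-1 (1.26% to 1.38%). The order of the lines turned on 1 host gene in each arm. With GLIS3 left out, 9p was at 1.12% in J82 (1.06% to 1.18%) and 1.56% in T24 (1.49% to 1.64%), against 1.32% in SV-HUC-1 (1.26% to 1.38%), which put J82 below SV-HUC-1. With LPAR1 left out, 9q was at 4.44% in J82 (4.33% to 4.56%) and 4.33% in T24 (4.21% to 4.45%), against 5.16% in SV-HUC-1 (5.04% to 5.28%), which put both cancer lines below SV-HUC-1.

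Counted by host gene, lower folds were more frequent on the chromosome than higher ones in J82 against SV-HUC-1, and most of these lay on the long arm. A host gene was compared when it had at least 10 reads in 1 of the 2 libraries, and it was counted from a 2-fold difference of log2(CPM + 0.0234), a pseudocount of 1 read in T24 that understates the folds of hosts with few reads. Of 146 host genes compared, 25 (17.1%) were higher in J82 and 45 (30.8%) lower, against 18.5% higher and 19.5% lower among all 2651 host genes compared. The median log2 fold was -0.29 on chromosome 9 and -0.03 over all host genes. On 9p, 9 of 27 were higher and 4 lower, with a median of 0.23 that was -0.22 over hosts with at least 20 reads in 1 library. On 9q, 16 of 119 were higher and 41 (34.5%) lower, with a median of -0.39. The counting interval of the ratio left out 1 for 21 of the 25 higher and 36 of the 45 lower. The filter let in 44 hosts through SV-HUC-1 alone and 18 through J82 alone, against 492 and 417 over all chromosomes. With at least 30 reads over the 3 libraries instead, 20 of 110 hosts were higher and 24 lower, against 16.2% and 14.8% of all host genes.

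GLIS3 led the higher end in J82. GLIS3, a zinc finger transcription factor studied mostly in pancreas and thyroid, had 390 reads in J82 and 105 in T24, against 1 in SV-HUC-1. The ratio was 411 in J82 (73.3 to 16269) and 122 in T24 (21.5 to 4882), with upper ends set by that 1 read. All 5 of its listed circRNAs (between 4117767 and 4286523, minus strand) were detected in J82 and 4 in T24, and the leading one, hsa_circ_0002874, had 284 reads in J82 and 81 in T24, against 1 in SV-HUC-1. PCSK5, a proprotein convertase, had 27 reads in J82 and 0 in T24, against 2 in SV-HUC-1, with a ratio of 14.2 in J82 (3.57 to 123). TLE4, a Groucho family corepressor, had 94 reads in J82 and 17 in T24, against 17 in SV-HUC-1, with a ratio of 5.83 in J82 (3.45 to 10.4) and of 1.17 in T24 (0.560 to 2.43). The circRNA reads of TLE4 were thus high in J82 alone.

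SUSD1, PTGR1 and BNC2 complete the 6 highest hosts of J82. SUSD1, a sushi domain membrane protein, had 38 reads in J82 and 8 in T24, against 8 in SV-HUC-1, with a ratio of 5.004 in J82 (2.30 to 12.4). PTGR1, a reductase of prostaglandins and leukotrienes, had 114 reads in J82 and 42 in T24, against 28 in SV-HUC-1, with a ratio of 4.29 in J82 (2.82 to 6.74). BNC2, a zinc finger protein of the basonuclin family, had 11 reads in J82 and 1 in T24, against 2 in SV-HUC-1, with a ratio of 5.79 in J82 (1.26 to 53.8) that rests on few reads.

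RABEPK, an effector of the endosomal GTPase Rab9, was the lowest in J82, with 1 read there and 18 in T24, against 32 in SV-HUC-1. It was 30.4-fold lower in J82 (5.07 to 1237) and 1.52-fold lower in T24 (0.830 to 2.88). ADAMTS13, the protease that cleaves von Willebrand factor, had 1 read in J82 and 0 in T24, against 23 in SV-HUC-1, which was 21.8-fold lower in J82 (3.55 to 899) and at least 6.57-fold lower in T24, taking 0 reads at a floor of 3. ANKS6, a protein of the primary cilium, had 3 reads in J82 and 4 in T24, against 43 in SV-HUC-1, and was 13.6-fold lower in J82 (4.35 to 68.6) and 9.22-fold lower in T24 (3.35 to 35.4). The reads of ADAMTS13 and ANKS6 came almost wholly from SV-HUC-1, whereas those of RABEPK were shared by T24 and SV-HUC-1.

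The remaining low hosts of J82 were low in T24 too. AUH, an RNA-binding enzyme of leucine breakdown, had 2 reads in J82 and 2 in T24, against 20 in SV-HUC-1, and was 9.49-fold lower in J82 (2.31 to 83.8) and 8.57-fold lower in T24 (2.08 to 75.7). GPSM1, a modulator of G protein signalling, had 4 reads in J82 and 8 in T24, against 32 in SV-HUC-1, and was 7.59-fold lower in J82 (2.69 to 29.6) and 3.43-fold lower in T24 (1.55 to 8.61). PIP5KL1, a protein related to phosphoinositide kinases, had 1 read in J82 and 2 in T24, against 12 in SV-HUC-1, and was 11.4-fold lower in J82 (1.69 to 487). Since both comparisons use the same SV-HUC-1 library, a high count in that library lowers both folds at once.

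**Figure D2:**
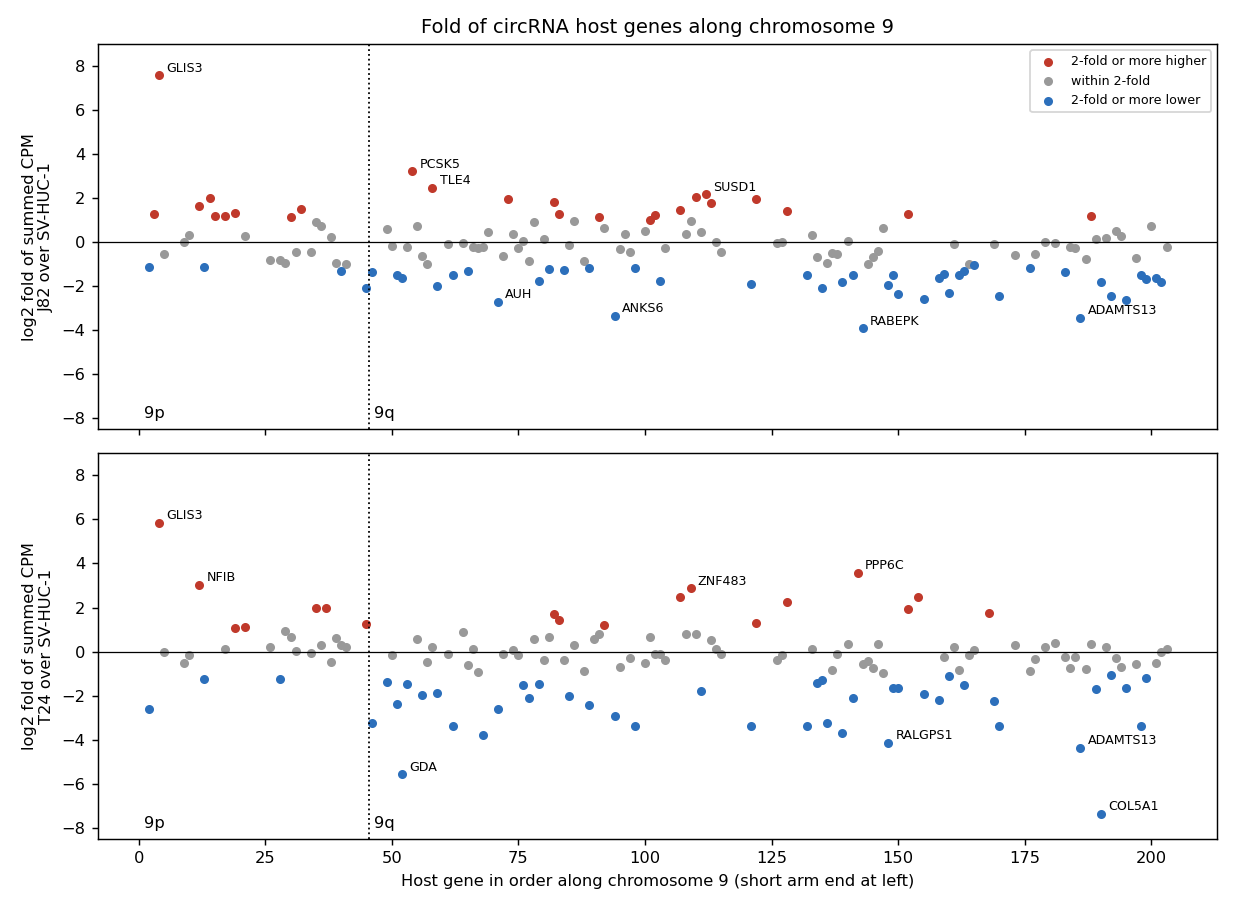
Log2 fold of summed CPM for each host gene compared, in order along chromosome 9 from the end of the short arm at left, for J82 over SV-HUC-1 (top) and T24 over SV-HUC-1 (bottom), with colour marking hosts 2-fold or more higher, within 2-fold, or lower. Each point is 1 host gene and the dotted line divides 9p from 9q. On 9p 9 hosts are higher and 4 lower in J82, and 7 higher and 3 lower in T24, while on 9q 41 are lower in each panel.

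In T24 against SV-HUC-1 most of the lower hosts again lay on the long arm. Of 141 host genes compared, 18 (12.8%) were higher in T24 and 44 (31.2%) lower, against 18.7% and 22.1% of all 2615 host genes compared. The median log2 fold was -0.28 on chromosome 9 and -0.04 over all host genes. On 9p, 7 of 24 were higher and 3 lower, with a median of 0.26. On 9q, 11 of 117 were higher and 41 (35.0%) lower, with a median of -0.41. The counting interval left out 1 for 17 of the 18 higher and 40 of the 44 lower. The filter let in 41 hosts through SV-HUC-1 alone and 13 through T24 alone, against 560 and 381 over all chromosomes. With at least 30 reads over the 3 libraries, 14 of 110 hosts were higher and 25 lower, against 16.1% and 17.7% of all host genes.

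COL5A1 stood at the low end of T24. COL5A1, the gene of a fibrillar collagen chain, had 51 reads in J82 and 0 in T24, against 190 in SV-HUC-1, and was 3.54-fold lower in J82 (2.58 to 4.92) and at least 54.3-fold lower in T24. Its 7 circRNAs differed within J82. The leading one, hsa_circ_0007482 (137582757 to 137593179, plus strand), had 34 reads in J82 and 0 in T24, against 31 in SV-HUC-1. The 4 circRNAs that start at 137619111 had 0 to 2 reads each in J82 and 0 in T24, against 10, 13, 39 and 47 in SV-HUC-1. The remaining circles were hsa_circ_0089430 (137591754 to 137593179), with 3 reads in J82 and 0 in T24, against 23 in SV-HUC-1, and hsa_circ_0003596 (137716445 to 137717750), with 11 in J82 and 0 in T24, against 27 in SV-HUC-1. The leading circle thus had about as many reads in J82 as in SV-HUC-1, and the other 6 had fewer.

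Other host genes at the low end of T24 had 0 or 1 read there. GDA, guanine deaminase, had 16 reads in J82 and 0 in T24, against 54 in SV-HUC-1, and was 3.20-fold lower in J82 (1.81 to 5.997) and at least 15.4-fold lower in T24. RALGPS1, an exchange factor for Ral GTPases, had 9 reads in J82 and 1 in T24, against 40 in SV-HUC-1, and was 4.22-fold lower in J82 (2.02 to 9.89) and 34.3-fold lower in T24 (5.81 to 1388). NR6A1, an orphan nuclear receptor of germ cells, had 7 reads in J82 and 1 in T24, against 29 in SV-HUC-1, and was 3.93-fold lower in J82 (1.69 to 10.6) and 24.9-fold lower in T24 (4.12 to 1016). DAPK1, a death-associated protein kinase, had 12 reads in J82 and 0 in T24, against 15 in SV-HUC-1, within 2-fold in J82 and at least 4.29-fold lower in T24. DAPK1 circles were thus missing from T24 alone. Folds set against the floor ignore counting error where reads were present. With that error counted, the exact lower end in T24 was 43.7-fold for COL5A1 and 12.1-fold for GDA.

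After GLIS3, the high end of T24 held PPP6C, NFIB, ZNF483, ST6GALNAC6 and LPAR1. PPP6C, the catalytic subunit of protein phosphatase 6, had 3 reads in J82 and 11 in T24, against 0 in SV-HUC-1, at least 4.28-fold higher in T24, where the exact lower end of the ratio was 2.93. NFIB, a nuclear factor I transcription factor, had 17 reads in J82 and 42 in T24, against 5 in SV-HUC-1, with a ratio of 3.58 in J82 (1.27 to 12.4) and 9.80 in T24 (3.88 to 31.7). ZNF483, a zinc finger protein, had 12 reads in J82 and 44 in T24, against 6 in SV-HUC-1, with a ratio of 2.11 in J82 (0.732 to 6.84) and 8.55 in T24 (3.63 to 24.6). ST6GALNAC6, a sialyltransferase, had 3 reads in J82 and 14 in T24, against 2 in SV-HUC-1, with a ratio of 8.16 in T24 (1.88 to 74.0). LPAR1, described above, was the remaining one of the 6 highest. CRAT, carnitine acetyltransferase, had 2 reads in J82 and 11 in T24, against 3 in SV-HUC-1, with a ratio of 4.28 in T24 (1.13 to 23.9).

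In windows of 10 Mb, the far long arm had the lowest medians in J82, and the first window of the long arm with host genes had the lowest in T24. From 130 to 140 Mb (ZNF79 to TRAF2), 2 of 34 hosts were higher in J82 and 17 lower, with a median of -1.01, the 6th lowest of 219 windows of the genome with at least 5 hosts. In T24, 3 of 36 were higher there and 14 lower, with a median of -0.73, the 21st lowest of 210. The window before it, from 120 to 130 Mb (CDK5RAP2 to GARNL3), had medians of -0.68 in J82 and -0.73 in T24, with 7 of 20 and 8 of 21 hosts lower. Summed over the window from 130 to 140 Mb, reads were 1798 in J82 and 1649 in T24, against 2410 in SV-HUC-1, a CPM ratio of 0.786 in J82 (0.739 to 0.836) and 0.798 in T24 (0.749 to 0.850). CAMSAP1 lies in that window, and without it the ratio was 0.556 in J82 (0.508 to 0.607) and 0.562 in T24 (0.513 to 0.616).

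From 70 to 80 Mb (CBWD5 to VPS13A) the cancer lines parted. In T24, 0 of 7 hosts were higher and 5 lower, with a median of -1.48, the 7th lowest of 210 windows, whereas in J82 1 of 8 was higher and 3 lower, with a median of -0.21. Summed reads were 172 in J82 and 69 in T24, against 198 in SV-HUC-1, with a ratio of 0.915 in J82 (0.742 to 1.13) and 0.406 in T24 (0.304 to 0.537). The short arm from 30 to 40 Mb (ACO1 to CNTNAP3) showed the reverse, with a median of -0.62 over 14 hosts in J82 and 0.31 over 14 hosts in T24. Reads summed to 853 in J82 and 1246 in T24, against 1219 in SV-HUC-1, with a ratio of 0.737 in J82 (0.675 to 0.805) and 1.19 in T24 (1.10 to 1.29). Set directly against T24, J82 was lower in 8 of the 14 hosts compared between these lines and higher in 0, with a median of -1.04.

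Some windows were high in the cancer lines. From 110 to 120 Mb (RAD23B to ASTN2), 6 of 14 hosts were higher in J82 and 2 lower, with a median of 0.71, and 3 of 13 were higher in T24 and 2 lower, with a median of 0.14. The summed ratio there was 1.85 in J82 (1.71 to 2.01) and 2.24 in T24 (2.06 to 2.42), and without LPAR1 it was 1.56 in J82 (1.41 to 1.72) and 1.19 in T24 (1.08 to 1.33). From 10 to 20 Mb, 4 of 5 hosts were higher in J82 and 1, ZDHHC21, was lower, with a median of 1.19, the 9th highest of 219. The interval of its summed ratio took in 1 in both lines, at 1.196 in J82 (0.919 to 1.56) and 1.03 in T24 (0.777 to 1.36). Only 3 hosts were compared there in T24, with a median of 0.12. The first 10 Mb (KANK1 to KDM4C) summed to a ratio of 2.83 in J82 (2.43 to 3.31), which was 1.04 (0.865 to 1.26) without GLIS3. In T24 the ratio of that window was 1.29 (1.08 to 1.55), and 0.762 (0.616 to 0.941) without GLIS3.

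**Figure D3:**
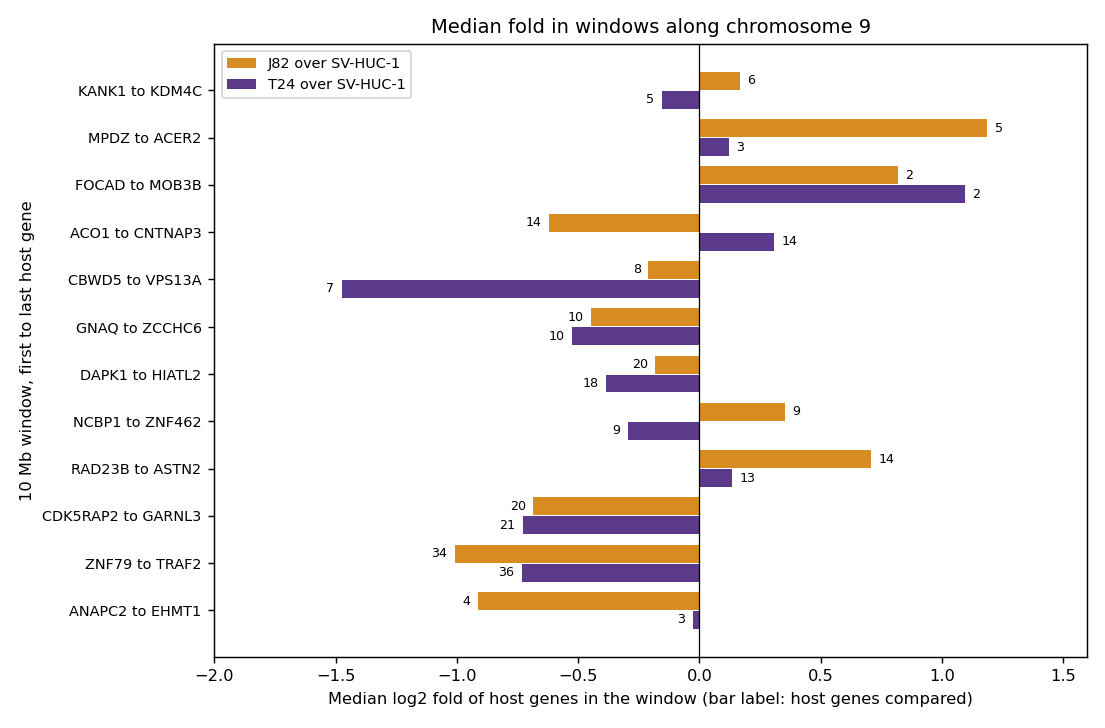
Median log2 fold over SV-HUC-1 of the host genes in each 10 Mb window of chromosome 9, named by its first and last host gene and ordered from the end of the short arm (top) to the end of the long arm (bottom), for J82 and T24. Numbers at the bars are the host genes compared, and medians over fewer than 5 are thin. Windows from CDK5RAP2 on have bars below 0 in both lines, and the bars from ACO1 to CNTNAP3 point opposite ways.

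Runs of at least 3 neighbouring compared hosts past 2-fold in the same direction were short. In J82 against SV-HUC-1, BNC2, CNTLN, DENND4C and FOCAD (16.7 to 20.9 Mb) were all higher, with ratios of 5.79, 2.63, 2.37 and 2.55, and the interval of CNTLN (0.760 to 11.5) took in 1. BNC2 and CNTLN passed the filter through J82 alone. PIP5KL1, CIZ1, SLC27A4 and CERCAM (130.7 to 131.2 Mb) were all lower in J82. All but CIZ1 had under 10 reads in J82 and entered through SV-HUC-1 alone. CIZ1, a nuclear zinc finger protein of DNA replication, had 64 reads in J82 and 38 in T24, against 211 in SV-HUC-1, and was 3.13-fold lower in J82 (2.36 to 4.21) and 4.76-fold lower in T24 (3.36 to 6.92). Its difference came from hsa_circ_0088737 (130931330 to 130943078, minus strand), with 24 reads in J82 and 8 in T24, against 175 in SV-HUC-1. Another CIZ1 circle, hsa_circ_0088744, had 33 reads in J82 and 27 in T24, against 28 in SV-HUC-1. CERCAM, a cell adhesion protein, had 8 reads in J82 and 18 in T24, against 46 in SV-HUC-1. RALGPS1, GARNL3 and ZNF79 (129.8 to 130.2 Mb) were lower in J82 and, in the comparison that shares its SV-HUC-1 library, in T24. Their reads were 9, 5 and 1 in J82 and 1, 4 and 2 in T24, against 40, 17 and 10 in SV-HUC-1. Each passed the filter of 10 reads through SV-HUC-1 alone. The direction of a host that enters through 1 library alone is largely set by the filter.

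In T24 against SV-HUC-1, C9orf85, GDA and C9orf41 (74.5 to 77.6 Mb) and RC3H2, RABGAP1 and STRBP (125.6 to 125.9 Mb) were also lower in a row. C9orf85, GDA and STRBP had under 10 reads in T24 and entered through SV-HUC-1 alone. RABGAP1, a GTPase-activating protein of Rab proteins, had 12 reads in J82 and 20 in T24, against 58 in SV-HUC-1, and STRBP, a double-stranded RNA-binding protein, had 10 in J82 and 1 in T24, against 21. No run on the chromosome was longer than 4 hosts, while over all chromosomes the longest reached 7 higher and 4 lower hosts in J82 and 10 higher and 11 lower hosts in T24. Neighbouring hosts on chromosome 9 had weakly related folds, with Pearson's r of 0.10 over 145 pairs in J82 and 0.03 over 140 pairs in T24, against 0.15 and 0.14 over all chromosomes. These are given as a description, since neighbours share libraries and one host enters 2 pairs.

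Among host genes of the regions most often lost, circRNAs did not move in one direction. The list held 21 gene symbols, chosen for their place in the segments that bladder cancers lose. Among them, KIAA1797 is another name of FOCAD and DBC1 of BRINP1. Of these symbols 8 had a listed circRNA, while CDKN2A, CDKN2B and PTCH1 had none. In J82, 1 of the 6 compared was higher and 3 lower, with a median of -0.72, and in T24 2 of 6 were higher and 2 lower, with a median of 0.20. Over all host genes, 18.5% were higher and 19.5% lower in J82, and 18.7% and 22.1% in T24. FOCAD, focadhesin, had 155 reads in J82 and 116 in T24, against 64 in SV-HUC-1, with a ratio of 2.55 in J82 (1.90 to 3.47) and 2.11 in T24 (1.54 to 2.92). CDKN2B-AS1, the long noncoding RNA that overlaps CDKN2B, had 19 reads in J82 and 31 in T24, against 16 in SV-HUC-1, with a ratio of 1.25 in J82 (0.609 to 2.60) and 2.26 in T24 (1.199 to 4.42). Its 4 circRNAs share the start 22046749 and were all detected in every line.

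MTAP, an enzyme of methionine salvage beside CDKN2A, had 5 reads in J82 and 1 in T24, against 9 in SV-HUC-1, too few to be compared. By the ratio of CPM, MTAP was 1.71-fold lower in J82 (0.514 to 6.49) and 7.72-fold lower in T24 (1.07 to 338). On the long arm of this list, FANCC, a Fanconi anaemia protein, had 8 reads in J82 and 29 in T24, against 21 in SV-HUC-1, 2.49-fold lower in J82 (1.06 to 6.51). TSC1, hamartin, had 3 reads in J82 and 7 in T24, against 10 in SV-HUC-1, and the interval in J82 (0.815 to 17.9 for a 3.16-fold lower value) took in 1. NOTCH1, a cell surface receptor, had 3 reads in J82 and 0 in T24, against 11 in SV-HUC-1, at least 3.14-fold lower in T24. Within this list, FOCAD and CDKN2B-AS1 were the only hosts compared on 9p, and they were within or above 2-fold of SV-HUC-1. Those compared on 9q were within or below it. MTAP, on 9p but not compared, had fewer reads in both cancer lines, so no split by arm can be drawn from this list.

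Genes of the chromosome were also grouped by role, and each list's counts stand beside the shares over all hosts given above. The signalling list shares DAPK1, DAB2IP, TSC1 and NOTCH1 with the list of lost regions, so those genes count in both. The ubiquitin list shares TRAF2 with the signalling list, UHRF2 with the transcription list and UBAP2 with the RNA-binding list. TRAF2 is the only lower host of the ubiquitin list in J82 and in T24. Of 34 receptors, kinases, phosphatases and signalling genes, 12 had circRNAs. In J82 1 of 8 compared was higher and 3 lower, with a median of -0.74, and in T24 2 of 9 were higher and 5 lower, with a median of -1.203. GNAQ, a G protein alpha subunit, had 81 reads in J82 and 29 in T24, against 134 in SV-HUC-1, and was 3.96-fold lower in T24 (2.64 to 6.14). TRAF2, an adaptor of tumour necrosis factor receptors, had 6 reads in J82 and 8 in T24, against 23 in SV-HUC-1, and was 3.64-fold lower in J82 (1.44 to 10.9) and 2.47-fold lower in T24 (1.06 to 6.37). PTPDC1, a phosphatase, had 15 reads in J82 and 5 in T24, against 29 in SV-HUC-1, and LPAR1 was the member higher in both.

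Transcription and chromatin genes had members at both ends of J82. Of 34, 21 had circRNAs, and in J82 6 of 18 compared were higher and 3 lower, with a median of 0.11, while in T24 3 of 16 were higher and 5 lower, with a median of -0.03. The higher ones in J82 were GLIS3, TLE4, BNC2, NFIB, RFX3 and ZNF462, and the lower ones SMARCA2, TLE1 and NR6A1. TLE1, a corepressor of the same family as TLE4, had 4 reads in J82 and 4 in T24, against 20 in SV-HUC-1, and was 4.75-fold lower in J82 (1.59 to 19.1) and 4.29-fold lower in T24 (1.44 to 17.2), so these related genes lay on opposite sides in J82. SMARCA2, an ATPase of SWI/SNF remodelling complexes, had 8 reads in J82 and 2 in T24, against 20 in SV-HUC-1. RXRA, the retinoid X receptor, had 19 reads in J82 and 4 in T24, against 18 in SV-HUC-1, and was 3.86-fold lower in T24 (1.27 to 15.7). PHF2, a histone demethylase, was lower in T24 too, with 12 reads in J82 and 3 in T24, against 12 in SV-HUC-1.

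Of 20 symbols of RNA-binding genes, 13 had circRNAs, with 1 of 8 higher and 2 lower in J82 (median -0.35) and 0 of 8 higher and 2 lower in T24 (median -0.06). The symbols without circRNAs include ROD1, another name of PTBP3, and TUT7, another name of ZCCHC6. PTBP3, a splicing regulator, had 270 reads in J82 and 102 in T24, against 82 in SV-HUC-1, with a ratio of 3.47 in J82 (2.70 to 4.50) and 1.45 in T24 (1.07 to 1.96). AUH and ZCCHC7 were lower in J82, and AUH and RC3H2 in T24. Of 38 genes of membrane traffic and the cytoskeleton, 22 had circRNAs, with 3 of 17 higher and 4 lower in J82 (median -0.23) and 1 of 16 higher and 3 lower in T24 (median 0.01). CNTRL, a centrosomal protein, had 12 reads in J82 and 20 in T24, against 4 in SV-HUC-1, and SPTAN1, a spectrin chain, had 13 in J82 and 10 in T24, against 36. Of 19 ubiquitin genes, 9 had circRNAs, with 3 of 8 higher and 1 lower in J82 (median 0.11) and 0 of 7 higher and 1 lower in T24 (median -0.13). The higher ones in J82 were RAD23B, UBE2R2 and DCAF12. RAD23B, a DNA repair and proteasome shuttle protein, had 117 reads in J82 and 41 in T24, against 52 in SV-HUC-1, with a ratio of 2.37 in J82 (1.70 to 3.35).

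Outside the lists, ERCC6L2, a DNA repair helicase, had 112 reads in J82 and 93 in T24, against 32 in SV-HUC-1, with a ratio of 3.69 in J82 (2.47 to 5.65) and 3.39 in T24 (2.25 to 5.24). It was named after its values were seen, as a long-arm host higher by similar amounts in both cancer lines.

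Set against each other, J82 had more higher than lower hosts relative to T24, on chromosome 9 as over all host genes. The counts ran opposite ways on 9p and 9q, though the medians of both arms were small. Of 122 host genes compared, 30 (24.6%) were higher in J82 and 19 (15.6%) lower, against 20.7% and 16.6% of all 2517 host genes compared. On 9p, 4 of 26 were higher and 9 lower, with a median of -0.11, and on 9q, 26 of 96 were higher and 10 lower, with a median of 0.05. COL5A1, FGD3, PCSK5 and GDA, all at 0 reads in T24, led the higher end, and J82 was at least 15.4-, 9.94-, 8.13- and 4.82-fold higher. FGD3, an exchange factor for Cdc42, had 33 reads in J82 and 0 in T24, with 8 in SV-HUC-1. CNTNAP3, RABEPK, CRAT and ST6GALNAC6 were at the low end, and their reads were few in J82. J82 was 11.6-fold lower for CNTNAP3 (5.05 to 32.9) and 19.9-fold lower for RABEPK (3.15 to 830). It was 6.09-fold lower for CRAT (1.33 to 56.5) and 5.17-fold lower for ST6GALNAC6 (1.44 to 28.0).

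Neighbouring hosts that differed between the cancer lines formed 3 runs. MELK, ZCCHC7, GRHPR and CNTNAP3 (36.6 to 39.2 Mb) were lower in J82 than in T24. MELK, a kinase of proliferating cells, had 24 reads in J82 and 66 in T24, with 50 in SV-HUC-1, and GRHPR had 95 in J82 and 198 in T24, with 198 in SV-HUC-1. GDA, C9orf41 and PCSK5 (74.8 to 78.7 Mb) were higher in J82. PTGR1, UGCG, SUSD1 and PTBP3 (114.3 to 115.1 Mb) were also higher in J82, and UGCG, a glucosylceramide synthase, had 36 reads in J82 and 6 in T24, with 27 in SV-HUC-1. ZCCHC7 and CNTNAP3 passed the filter through T24 alone, and GDA, PCSK5, UGCG and SUSD1 through J82 alone.

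**Figure D4:**
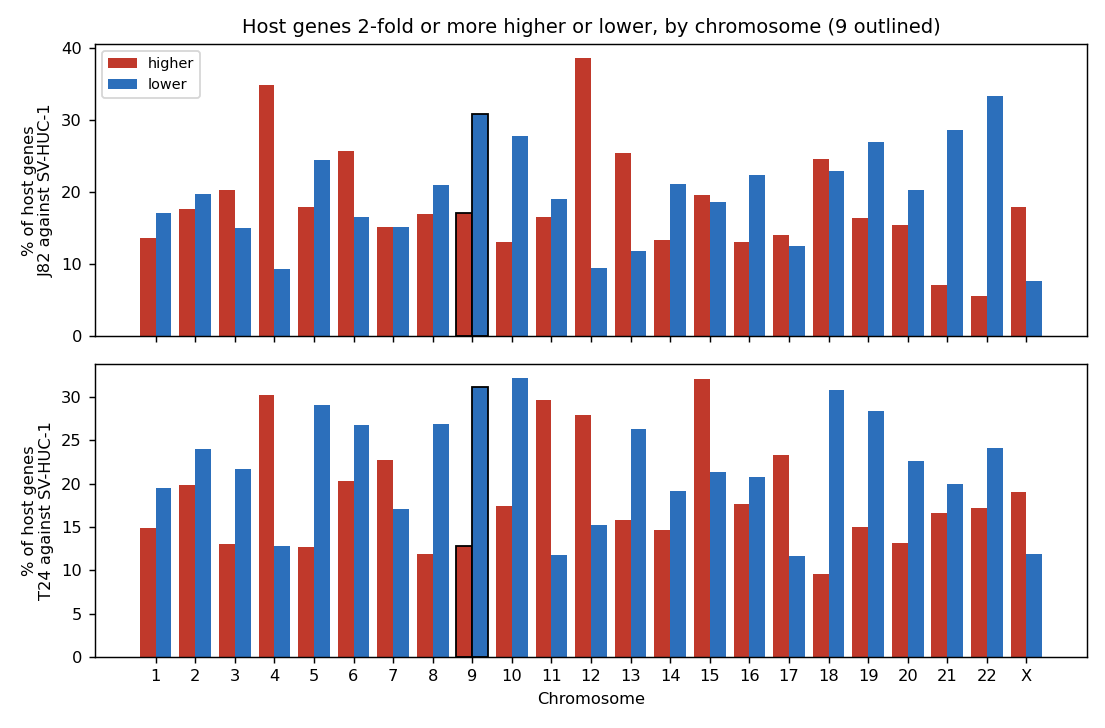
Percentage of compared host genes that were 2-fold or more higher (red) or lower (blue) on each chromosome, for J82 against SV-HUC-1 (top) and T24 against SV-HUC-1 (bottom), with the bars of chromosome 9 outlined. Its share of lower hosts is 30.8% in J82, next to 33.3% on chromosome 22, and 31.2% in T24, next to 32.2% on chromosome 10.

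Among 23 chromosomes with at least 20 compared hosts, chromosome 9 had the second highest share of lower hosts in each of the 2 comparisons that share SV-HUC-1. Its share was 30.8% in J82, after chromosome 22 with 33.3%, and 31.2% in T24, after chromosome 10 with 32.2%. By the median log2 fold it was the 4th lowest in J82 and the 6th lowest in T24. Other chromosomes thus reached shares as high, and no test was made of the difference between chromosomes.

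Several hosts held circRNAs that moved in opposite directions, which a sum over the host hides. In PTBP3, hsa_circ_0003500 (115030328 to 115060196, minus strand) had 96 reads in J82 and 33 in T24, against 16 in SV-HUC-1, with a ratio of 6.32 in J82 (3.70 to 11.5) and 2.41 in T24 (1.29 to 4.68). Its neighbour hsa_circ_0088072 (115013208 to 115015068) had 8 reads in J82 and 5 in T24, against 24 in SV-HUC-1, with a ratio of 0.351 in J82 (0.136 to 0.808) and 0.243 in T24 (0.0724 to 0.650). In J82 every PTBP3 circle past 2-fold higher ended at 115060196. In EHMT1, hsa_circ_0138278 had 15 reads in J82 and 21 in T24, against 2 in SV-HUC-1, with a ratio of 12.2 in T24 (2.99 to 108). EHMT1's hsa_circ_0009011 had 31 reads in J82 and 23 in T24, against 64 in SV-HUC-1, with a ratio of 0.419 in T24 (0.248 to 0.684). The EHMT1 circles higher in T24 lie downstream of those that were lower.

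In FAM120A, hsa_circ_0139369 had 2 reads in J82 and 5 in T24, against 24 in SV-HUC-1, and hsa_circ_0007060 had 30 in J82 and 19 in T24, against 14, a ratio of 2.26 in J82 (1.16 to 4.61). UBAP2's hsa_circ_0003945 had 13 reads in J82 and 39 in T24, against 61 in SV-HUC-1, with a ratio of 0.225 in J82 (0.113 to 0.413). Its hsa_circ_0001851 had 28 reads in J82 and 9 in T24, against 11 in SV-HUC-1, with a ratio of 2.68 in J82 (1.29 to 5.97). The mixture of UBAP2 circles in J82 thus differed from that in SV-HUC-1 by more than its sum, which was 1.37-fold lower. VPS13A, a lipid transfer protein, had the same split in both cancer lines, with hsa_circ_0008075 at 17 reads in J82 and 13 in T24, against 1 in SV-HUC-1, and hsa_circ_0087247 at 3 in J82 and 3 in T24, against 14. TMEM245 had circles in opposite directions in T24, and FOCAD and TMEM245 between J82 and T24. LPAR1's leading circle, hsa_circ_0087960, had 553 reads in J82 and 862 in T24, against 208 in SV-HUC-1. Its ratio was 4.83 in T24 (4.15 to 5.65). LPAR1's hsa_circ_0003611 (113703700 to 113735838) had 41 reads in J82 and 165 in T24, against 9 in SV-HUC-1. Its ratio was 21.4 in T24 (11.0 to 47.6).

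**Figure D5:**
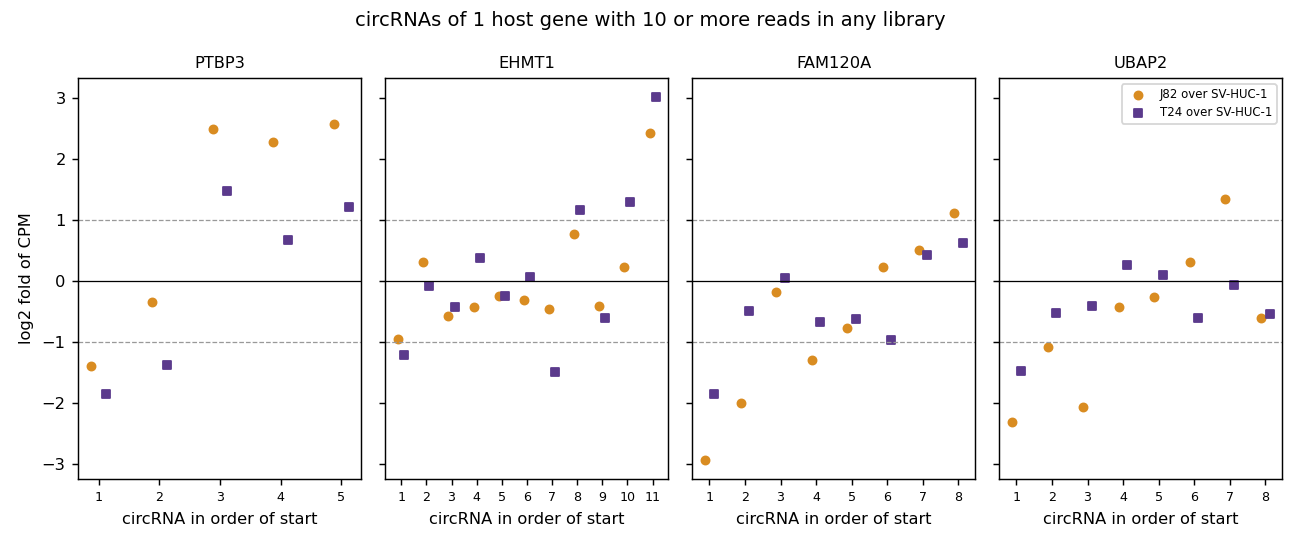
Log2 fold of CPM over SV-HUC-1 for each circRNA with 10 or more reads in any library, in 4 host genes whose circRNAs moved in opposite directions, ordered by start position, for J82 and T24. Dashed lines mark 2-fold. In PTBP3 the first circle is below the lower line in both cancer lines and the last above the upper line.

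Counted by circRNA rather than by host, the chromosome gave 49 higher and 73 lower of 229 in J82, against 22.9% and 23.3% of all circRNAs compared, and 40 higher and 80 lower of 214 in T24, against 21.4% and 27.3%. Between J82 and T24, 47 of 182 were higher in J82 and 31 lower, against 25.1% and 19.5%. The 571 circRNAs spanned a median of 6678 bp (163 to 295853 bp), and the rest of the table a median of 6022 bp. A circBase ID was given for 478 (83.7%), and for 86.4% of the rest. All 3 lines held 382 (66.9%), against 70.1% of the rest. Absent from T24 alone were 78, against 938 of the other 9991. From J82 alone 33 were absent, against 565, and from SV-HUC-1 alone 24, against 566. An end was shared with another listed circRNA by 342 (59.9%), against 55.6% of the rest.

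With both cancer lines set against SV-HUC-1 in edgeR's quasi-likelihood test over 2851 host genes, the lone SV-HUC-1 library was assumed to vary like the cancer lines. On chromosome 9, 4 of 151 hosts passed an adjusted p of 0.05, and 43 of 2851 (1.51%) over all chromosomes. GLIS3 had a log2 fold of 7.88 (edgeR adjusted p = 5.16e-08) and LPAR1 of 2.05 (edgeR adjusted p = 0.0138). COL5A1 had a log2 fold of -2.81 (edgeR adjusted p = 0.0225) and ANKS6 of -3.42 (edgeR adjusted p = 0.0495). Each of the 4 had both cancer lines on the same side of SV-HUC-1. The test takes J82 and T24 as replicates, though they are different lines. COL5A1 had 51 reads in J82 and 0 in T24, a log2 fold of 5.56 between them. ANKS6, with 3 reads in J82 and 4 in T24, against 43 in SV-HUC-1, entered through SV-HUC-1 alone. At an unadjusted p under 0.05, 15 chromosome 9 hosts were counted, 9 of them lower, and 211 of all 2851 (7.4%). limma on the log2 values called 0 hosts after adjustment, with 7 on chromosome 9 at an unadjusted p under 0.05 and 148 of all 2851 (5.19%).

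Some members share sequence with near-identical copies, and their reads could have been split or misassigned. They are CNTNAP3, CBWD5 and CBWD3, and the pair HIATL1 and HIATL2, which had 9 and 12 reads in J82 and 10 and 4 in T24, against 35 and 30 in SV-HUC-1. The 14 circRNAs without an annotated host gene, which entered no host total, summed to 65 reads in J82 and 80 in T24, against 100 in SV-HUC-1.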

How the data were processed

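Circular RNA was measured in J82, T24 and SV-HUC-1 with 1 library each. The deposited table lists each circRNA by position, ID and host gene and holds its CPM per line, scaled by the authors with TMM factors per the table's name. Tools in the submitters' processing notes, without roles, are STAR, edgeR, RSEM 1.2.15 and Bowtie2 2.1.0, and the build there is hg19. The caller of back-splice junctions, and whether starts count from 0 or 1, are not given in the sources used here. Every deposited CPM value was a whole multiple of the value of 1 read (100% within a tolerance of 0.01 reads), so whole reads were recovered, and edgeR called 43 host genes on them.

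CPM was summed by host gene over the whole table. A host's position is the lowest start of its circRNAs, its arm is set at 49 Mb, and windows are 10 Mb. Ratios are of CPM, with exact Clopper-Pearson 95% intervals on reads, and 0 reads were taken as 3. Without replicates there is no p-value between 2 lines. Both cancer lines were set against SV-HUC-1 with edgeR 4.0.16 (1 residual degree of freedom), and limma 3.58.1 as an alternative, in R 4.3.3. The methods were tested on simulated reads with counting error alone and the same fold in both cancer lines. That simulation cannot show how they behave when the lines differ. pandas 2.3.3 and scipy 1.17.1 did the rest. With 1 library per line, the spread within a line, technical or between cultures, could not be measured and is part of every difference between lines.

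Named host genes were the 6 at either end of the folds over SV-HUC-1 for J82 and for T24, the 4 at either end for J82 over T24, the 6 with most reads, list members past 2-fold and genes of runs. Named circRNAs were the 6 with most reads and those of hosts with opposite directions. Circles of GLIS3, LPAR1, COL5A1 and CIZ1 were added after their values were seen. Members, lists and rules were chosen with earlier results of these data known.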

Additional observations from a re-analysis of the deposited data

Results flagged for a closer look

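CNTNAP3, a contactin-associated cell adhesion protein (39099907 to 39178831 on hg19), moved in opposite directions in the cancer lines. It had 6 reads in J82 and 63 in T24, against 30 in SV-HUC-1, and was 4.75-fold lower in J82 (1.94 to 13.9) with a ratio of 2.45 in T24 (1.56 to 3.92). The log2 fold of J82 against T24 was -3.32. With 1 library a line the difference was not tested. The gene has near-identical copies, and its leading circRNA, hsa_circ_0087104, held 5 of the 6 reads in J82 and 38 of the 63 in T24, against 16 of the 30 in SV-HUC-1.

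A circRNA without an annotated host gene on 9p (40491621 to 40504056, minus strand) was outside every comparison by host gene. It had 3 reads in J82 and 33 in T24, against 9 in SV-HUC-1. The log2 fold of T24 against SV-HUC-1 was 1.96, a ratio of 4.28 (2.00 to 10.2), and 0.351 (0.0611 to 1.41) in J82. The leading CNTNAP3 circle (39165929 to 39178357, also minus strand) had a like span and order of lines. It had 5 reads in J82 and 38 in T24, against 16 in SV-HUC-1. Whether both circles come from copies of the same sequence was not tested, so they may not be separate observations.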

How the results depend on the processing

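No paired analysis was possible because each line has 1 library and the labels give no replicate numbers. Of 159 values recomputed under an alternative, 114 were counted as close to the value reported. The 114 take in medians that changed sign, given below. Counts of chromosome 9 hosts higher and lower changed by over 1.5 times in the following cases, whose cause lies in the hosts each setting admits or counts. In J82 against SV-HUC-1, a pseudocount of 5 reads gave 16 higher and 28 lower, no filter 38 higher, a filter of 20 reads 27 lower, a 4-fold threshold 6 and 12, circRNAs in place of hosts 49 and 73, and a total of at least 30 reads 24 lower. In T24 against SV-HUC-1, no filter gave 31 higher, a filter of 20 reads 26 lower, a 4-fold threshold 7 and 23, circRNAs 40 and 80, and a total of at least 30 reads 25 lower. In J82 against T24, no filter gave 56 and 40, a filter of 20 reads 17 and 9, a 4-fold threshold 10 and 4, and circRNAs 47 and 31. The 9p median of J82 against SV-HUC-1 was -0.22 with the filter of 20 reads and -0.01 with the total of 30, and that of J82 against T24 was 0.16 with no filter. The 9q median of J82 against T24, like that of the whole chromosome, was -0.02 when CPM was taken over the listed reads. The lowest window was -1.37 in J82 and -2.38 in T24 with 5 Mb windows.

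The chromosome's share of reads in J82 and T24, against SV-HUC-1, was 5.54% and 6.10%, against 5.93%, without CAMSAP1. It was 4.72% and 4.62%, against 5.24%, without CAMSAP1, LPAR1 and UBAP2, and 5.58% and 5.91%, against 6.48%, without LPAR1 and GLIS3. Its share of detected circRNAs was 5.39% and 5.09%, against 5.53%. Without GLIS3, 9p held 1.12% in J82 and 1.56% in T24, and without LPAR1, 9q held 4.44% and 4.33%, against 5.16%. For both cancer lines against SV-HUC-1, limma called 0 higher and 0 lower hosts where edgeR called 2 and 2, and the cause was not tested. The filters by a total of 30 reads and the shares without GLIS3, LPAR1 or UBAP2 were chosen after seeing the data. Hosts with few reads are limited by depth, since 1 read is worth 0.0211, 0.0234 and 0.0201 CPM in J82, T24 and SV-HUC-1.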
